A study of Rattus norvegicus with 142 samples.

Results

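The 5 genes described here are C1qb (probe set 1370215_AT), C3 (1368000_AT), Cd74 (1367679_AT), Ctss (1387005_AT) and Lyz2 (1370154_AT), which were picked by probe set identifier as genes of microglia and of the complement system and make up 5 of the 24249 probe sets on the array. The gene names came with the identifiers, since the deposited table names probe sets only, and no array annotation was used here to check them. Microglia are the resident macrophages of the brain, and in the young brain they clear dying cells and surplus synapses. C1q and C3 are complement proteins, secreted factors that tag material for uptake by phagocytes and that take part in synapse removal during development. Lysosomal enzymes such as cathepsin S and lysozyme break down what has been taken up, and cathepsin S also prepares class II major histocompatibility molecules, which travel with the invariant chain Cd74, for presenting peptides.

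RNA was measured in hippocampus and cortex of Long-Evans rat pups that entered the experiment at postnatal day 10. Animals labelled noHS breathed normal air and received vehicle, HS animals passed through 15 min at 5% O2, which brings on seizures, and received vehicle, and HS+NBQX animals had the same hypoxia followed by NBQX, a blocker of AMPA-type glutamate receptors, in 4 intraperitoneal injections over 48 h beginning 30 min after the hypoxia. The vehicle was DMSO. Pups killed at 1, 6 or 12 h died before the injection period had ended, so the doses received differed with time. Pups were killed at 1, 6, 12, 48 or 168 h, which gave 142 libraries (70 of hippocampus and 72 of cortex) from 74 pups of 11 litters, in 30 groups of 4 to 6 libraries, and 68 pups gave both tissues. Each litter was killed at 1 time, so that age and litter cannot be told apart beyond the 2 or 3 litters of each time. At 1 h, 1 litter gave HS pups only. Hippocampus lay mostly on one array plate and cortex on the other, except that 13 libraries of 1 litter at 168 h lay on the plate of the other tissue, and each plate column held 1 treatment. The tissues are whole homogenates, in which fewer cells of a type and less RNA per cell cannot be told apart.

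The values are hybridisation intensities, and their brightness sets how much each gene can show. Ctss lay at percentile 92.6 and Lyz2 at percentile 80.2 of mean log2 intensity over all probe sets, and both were above the median of the array in all 142 libraries. C1qb lay at percentile 50.2 and was above the array median in 74 libraries. C3 and Cd74 were dim, at percentiles 30.2 and 31.6, and were below the array median in every library, so that small differences in these genes are hard to see. Their intensities were 3.38 to 40.9 for C3 (median 19.4) and 5.92 to 36.3 for Cd74 (median 21.7), where the array medians ran from 63.8 to 79.9. The pooled standard deviation within groups, on the log2 scale, was 0.46 for C3 and 0.42 for Cd74, against 0.34 for C1qb, 0.30 for Lyz2 and 0.26 for Ctss. Whether a probe set was called present was not used here, and defining markers of microglia beyond these genes were not examined.

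The promoter windows of 3 of the genes are shown because these genes carry the differences described below, Ctss and Lyz2 with age and C1qb between the tissues. Each window runs from 250 bases before to 50 bases after the start site in RefSeq (build GRCr8), is written in the direction of the gene, and all 5 genes matched an entry by symbol. Capitals mark a match, on either strand, to GAGGAA, the core that the myeloid transcription factor PU.1 binds, or to GAAANNGAAA, a form of the element bound by interferon regulatory factors. The C1qb window is chr5:154407778-154408077 on the minus strand, the Ctss window is chr2:185775146-185775445 on the plus strand, and the Lyz2 window is chr7:54797962-54798261 on the minus strand.
C1qb: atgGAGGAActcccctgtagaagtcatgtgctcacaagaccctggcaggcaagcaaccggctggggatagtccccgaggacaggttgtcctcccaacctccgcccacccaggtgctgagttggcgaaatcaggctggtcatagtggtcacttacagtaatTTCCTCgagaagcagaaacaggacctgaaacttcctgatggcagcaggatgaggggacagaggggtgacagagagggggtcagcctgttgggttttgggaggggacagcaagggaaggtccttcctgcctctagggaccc
Ctss: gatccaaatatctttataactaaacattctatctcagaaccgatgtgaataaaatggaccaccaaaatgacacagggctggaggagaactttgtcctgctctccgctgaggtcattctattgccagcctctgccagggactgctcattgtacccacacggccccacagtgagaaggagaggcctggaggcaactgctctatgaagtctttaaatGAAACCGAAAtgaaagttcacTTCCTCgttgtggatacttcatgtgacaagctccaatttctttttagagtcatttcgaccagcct
Lyz2: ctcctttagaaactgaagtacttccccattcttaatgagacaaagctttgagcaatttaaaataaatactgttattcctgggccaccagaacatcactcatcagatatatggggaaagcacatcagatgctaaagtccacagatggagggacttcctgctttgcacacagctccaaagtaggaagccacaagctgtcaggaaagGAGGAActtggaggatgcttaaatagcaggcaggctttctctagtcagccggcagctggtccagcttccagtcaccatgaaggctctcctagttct
GAGGAA was found 2 times in the window of C1qb and 1 time each in those of Ctss, Lyz2 and Cd74, and was not found in that of C3, while 27.6% of 33469 promoter windows held it. In the Ctss window the match on the other strand began 15 bases before the start site. In the Lyz2 window the match on the gene's strand began 46 bases before the start site used for the window. RefSeq places the outer end of the Lyz2 gene at 54798060, inside this window, so that distance depends on the start site taken. GAAANNGAAA was found in the Ctss window only, 36 bases before the start site as GAAACCGAAA, and 3.92% of all windows held a match. The matches are a description of letters, and binding was not measured. A second lysozyme gene, Lyc2, lies 12.4 kb from Lyz2 on chromosome 7, and RefSeq also lists it under the older name Lyz2, so which of these transcripts the lysozyme probe set measured is uncertain.

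The normal course of these genes over the first week after postnatal day 10 was read from the noHS animals. Ctss and Lyz2 rose about to the same degree in hippocampus and cortex, while C1qb, C3 and Cd74 did not pass the test. In the noHS hippocampus, Ctss, which encodes cathepsin S, was at 880, 772, 741, 594 and 841 in the 5 libraries of 1 h and at 1880, 1570, 2000, 1870 and 1860 in the 5 of 168 h. The groups did not overlap, and the lowest library of 168 h stood well above the highest of 1 h. Ctss rose by 1.27 ± 0.12 (SE) on the log2 scale, or 2.41-fold (adjusted p = 2.38e-08, limma). In the noHS cortex, Ctss was at 791, 972, 513 and 463 at 1 h and at 1530, 1390, 1740, 1570 and 1830 at 168 h. Again no library of 168 h fell among those of 1 h, and the difference was 1.30 ± 0.20, or 2.45-fold (adjusted p = 2.06e-05). The pups of 1 h and 168 h came from different litters, and each pup counted as a separate replicate. No fit over the week had a term for litter, so the errors and p-values, here and below, measure the spread among pups.

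Lyz2, which encodes the lysozyme of phagocytes, followed the same course. In the noHS hippocampus it was at 310, 346, 314, 316 and 389 at 1 h and at 726, 645, 693, 604 and 683 at 168 h. The 2 groups lay far apart, and the rise was 1.00 ± 0.12 on the log2 scale, or 2.00-fold (adjusted p = 8.96e-07). In the noHS cortex Lyz2 was at 389, 453, 266 and 241 at 1 h and at 583, 541, 719, 659 and 642 at 168 h. These groups did not overlap either, and the rise was 0.94 ± 0.19, or 1.92-fold (adjusted p = 0.00036). Of the 5 genes, 2 were called in each tissue, a share to be read against 17.3% of all hippocampal and 25.8% of all cortical probe set tests. The median log2 difference over all probe sets was 0.02 in hippocampus and -0.08 in cortex.

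The remaining genes gave smaller differences over the week. For C1qb, a chain of the complement recognition molecule C1q, the difference between 168 and 1 h was 0.36 ± 0.17 in the noHS hippocampus (adjusted p = 0.149) and -0.01 ± 0.26 in the noHS cortex (adjusted p = 0.993). For C3, the central complement component, it was -0.42 ± 0.30 in hippocampus (adjusted p = 0.391) and -0.33 ± 0.28 in cortex (adjusted p = 0.439). For Cd74, the invariant chain, it was 0.35 ± 0.28 in hippocampus (adjusted p = 0.441) and 0.47 ± 0.26 in cortex (adjusted p = 0.189). None of these passed the threshold of an adjusted p of 0.05, which for the dim C3 and Cd74 leaves room for differences of the size of their errors. The difference between the tissues in the change over the week was tested directly. It was called for 0 of the 5 genes, against 1.12% of all probe sets. At an unadjusted p under 0.05 there were also 0 genes, against 3459 of 24249 probe sets (limma). For Ctss this difference, hippocampus minus cortex, was -0.03 ± 0.25, and for Lyz2 it was 0.06 ± 0.23.

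The rise of Ctss and Lyz2 was also present after hypoxic seizures and after NBQX, in both tissues. The HS and HS+NBQX groups gave the following values for Ctss. In the HS hippocampus Ctss was at 1130, 920, 956, 553 and 1160 at 1 h and at 1770, 1820, 2090, 2120 and 2100 at 168 h, with no overlap, and the difference was 1.11 ± 0.13 (2.16-fold, adjusted p = 4.53e-07). In the HS cortex it was at 1380, 1070, 652, 621 and 1030 at 1 h and at 1610, 1670, 1850, 1880 and 1380 at 168 h, a difference of 0.88 ± 0.16 (1.84-fold, adjusted p = 0.000113). Here the highest library of 1 h equalled the lowest of 168 h, and the other 4 libraries of 168 h stood above all of 1 h. In the HS+NBQX animals Ctss rose by 1.17 ± 0.12 in hippocampus (adjusted p = 8.31e-08) and by 1.03 ± 0.14 in cortex (adjusted p = 1.69e-06), and the libraries of 1 h (643 to 939 in hippocampus, 728 to 943 in cortex) lay below all those of 168 h (1790 to 2140 and 1510 to 1900).

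For Lyz2 the difference between 168 and 1 h in HS animals was 0.88 ± 0.12 in hippocampus (adjusted p = 6.09e-06), where 270 to 378 at 1 h compared with 541 to 678 at 168 h. In the HS cortex it was 0.81 ± 0.21 (adjusted p = 0.00373), with values of 604, 388, 282, 203 and 444 at 1 h and 545, 573, 700, 706 and 638 at 168 h. One library of 1 h thus stood above 2 of 168 h, and this call was lost without the litter on the other plate (0.64, adjusted p = 0.115). In HS+NBQX animals the rise was 0.80 ± 0.20 in hippocampus (adjusted p = 0.00346) and 0.92 ± 0.19 in cortex (adjusted p = 0.00037), without overlap in either tissue. In HS animals 2 of the 5 genes were called in each tissue, against 24.9% of all probe sets in hippocampus and 29.4% in cortex, and in HS+NBQX animals also 2, against 22.4% and 26.3%. Differences between treatments in the change over the week were not tested. Cd74 was higher at 168 h by 0.71 ± 0.30 in the HS hippocampus (adjusted p = 0.0841) and by 0.60 ± 0.25 in the HS+NBQX cortex (adjusted p = 0.0791). Neither difference passed the test. The first was called with 32 added to each intensity (adjusted p = 0.0477). The second was called with that setting (adjusted p = 0.037), with quantile normalization (adjusted p = 0.0458) and without trend (adjusted p = 0.0328). In the HS+NBQX cortex all 5 libraries of 168 h (26.7 to 36.3) lay above the 4 of 1 h (17.2 to 24.6). That was the 1 of 6 sets of treatment and tissue where the Cd74 groups of 168 and 1 h did not overlap. The share of all probe sets without such overlap was not counted, here or for Ctss and Lyz2.

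**Figure D1:**
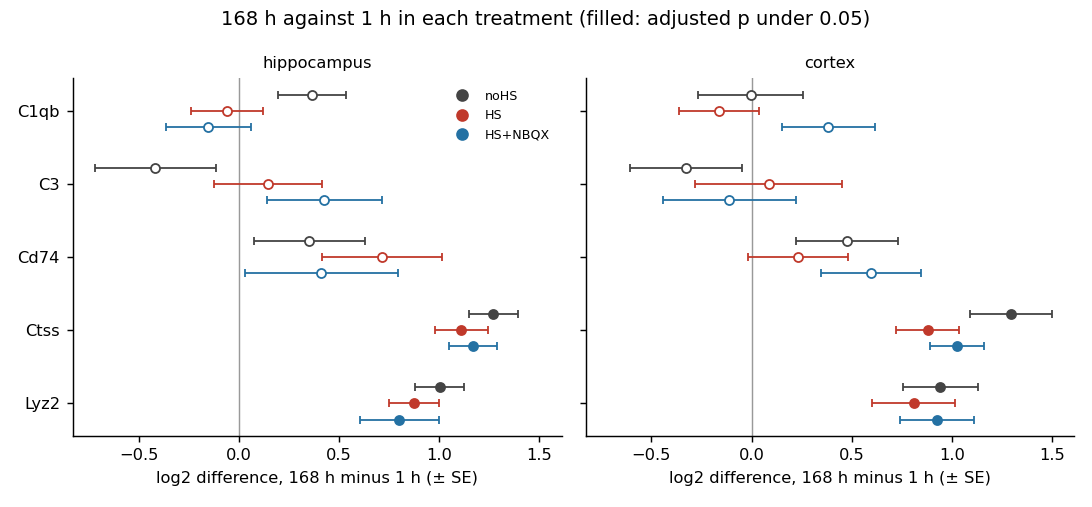
Log2 difference in intensity between 168 h and 1 h (x axis, bars are ± 1 SE from the limma fit) for each gene (y axis) in the noHS, HS and HS+NBQX animals, with hippocampus on the left and cortex on the right. Filled points passed an adjusted p of 0.05, which was the case for Ctss and Lyz2 in all 6 panels of treatment and tissue (0.80 to 1.30) and for none of C1qb, C3 and Cd74.

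The times between showed how far the rise had come. In the noHS hippocampus the medians of Ctss were 772, 966, 981.5, 1060 and 1870 at 1, 6, 12, 48 and 168 h, and in the noHS cortex they were 652, 810.5, 803, 1270 and 1570. Lyz2 had medians of 316, 342, 480, 494 and 683 at these times in the hippocampus, and of 327.5, 368, 433, 484 and 642 in the cortex. In both tissues and for both genes the median at 168 h was the highest, and in the hippocampus Ctss at 48 h was still well below it. In the noHS hippocampus 0 of the 15 differences from 1 h at 6, 12 and 48 h were called, against 0.0206% of all. At an unadjusted p under 0.05 there were 5 of 15, against 1121, 1443 and 2086 of 24249 probe sets at these times (limma). In the noHS cortex 5 of 15 had an unadjusted p under 0.05, against 1737, 3417 and 4235 probe sets at these times. There 1 of 15 was called, against 1.13% of all. That one was Ctss at 48 h, at 1330, 1200, 1270, 1330 and 785 in the 5 libraries, or 0.83 ± 0.20 above 1 h (adjusted p = 0.0261). It was past the threshold by a small margin, since the adjusted p ran from 0.0514 to 0.138 when noHS cortex replicate 3 or 4 of 1 h, or replicate 1, 2, 3 or 4 of 48 h, was left out one at a time. Lyz2 at 48 h in the cortex (0.57 ± 0.19, adjusted p = 0.0985) was called only without noHS cortex replicate 2 of 1 h (0.73, adjusted p = 0.0394), with array weights, and with a common median.

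**Figure D2:**
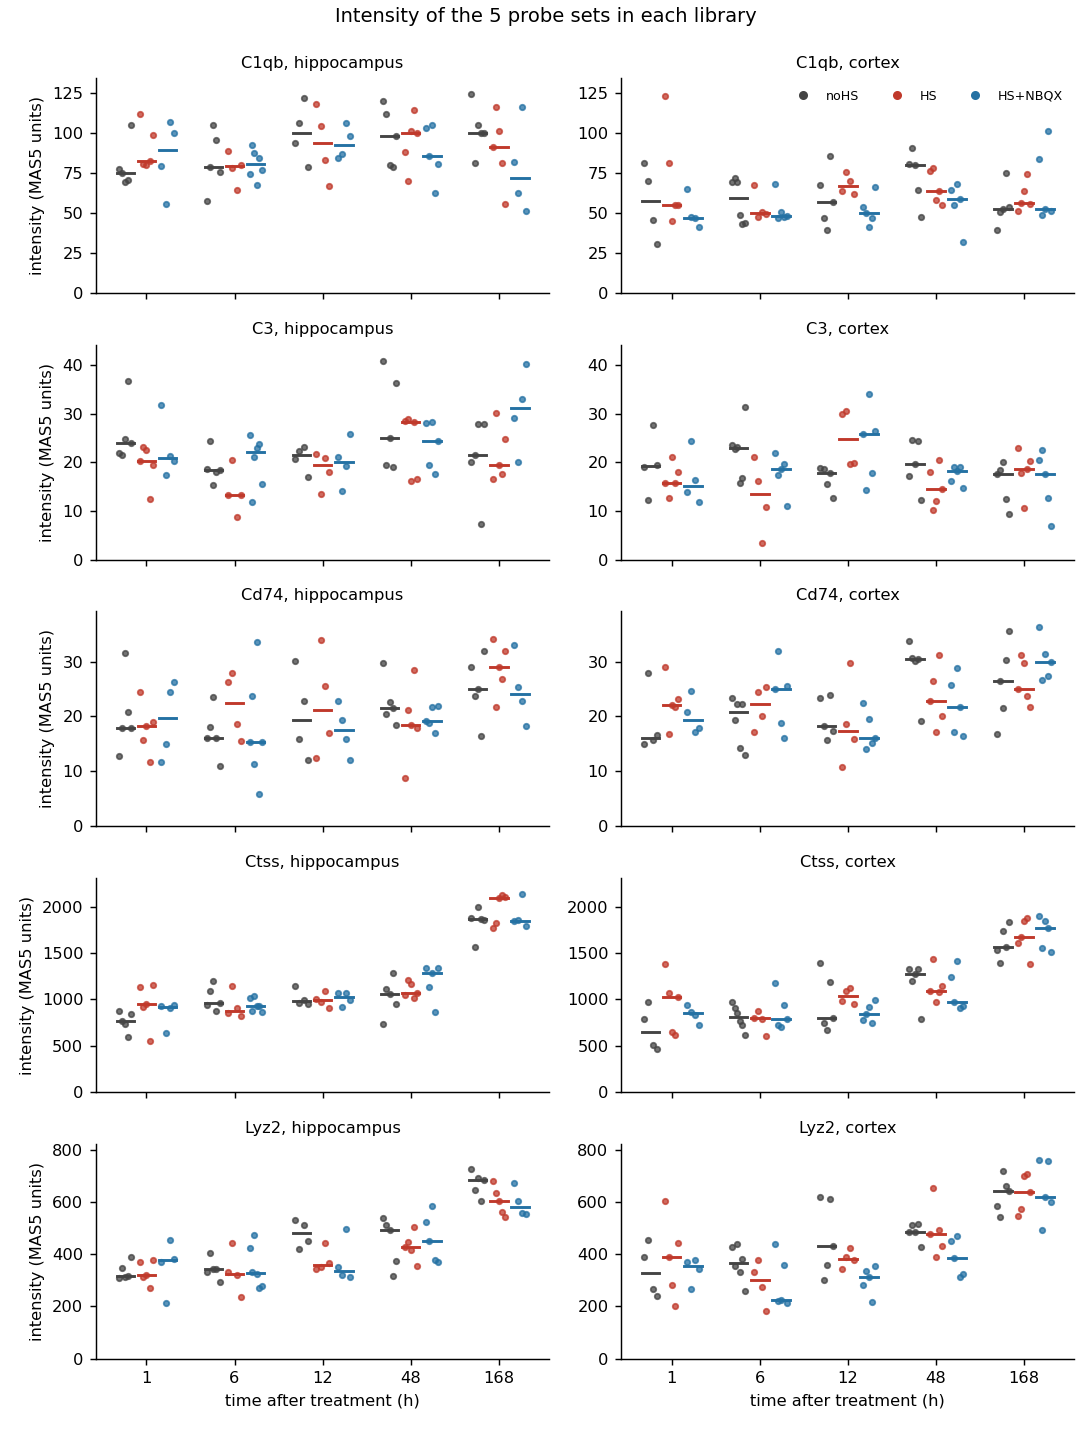
Intensity in MAS5 units (y axis, from 0) of each gene in each library against time after treatment (x axis, hours, equally spaced), with hippocampus on the left, cortex on the right, and the 3 treatments as coloured points with a bar at the group median. Ctss and Lyz2 stand highest at 168 h in both tissues under every treatment, C1qb lies higher in hippocampus, and C3 and Cd74 are dim and scattered.

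C1qb was the 1 gene of the 5 that was called between the tissues in the main fit, and C3 was called under several alternatives. Over all libraries its intensity was 51.5 to 124 in hippocampus (median 86.2, n = 70) and 30.9 to 123 in cortex (median 55.45, n = 72). In the noHS animals at 168 h it was at 124, 81.2, 105, 100 and 100 in hippocampus and at 39.3, 50.4, 52.4, 75 and 53.7 in cortex. All 5 hippocampal libraries stood above all 5 cortical ones, and the difference was 0.93 ± 0.22 on the log2 scale, or 1.91-fold (adjusted p = 0.00228). At 12 h the 4 noHS hippocampi had C1qb at 93.8, 106, 122 and 78.9 and the 5 noHS cortices at 67.2, 46.7, 39.4, 85.7 and 56.8. They overlapped in 1 cortical library, and the difference was 0.80 ± 0.23 (adjusted p = 0.00942).

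At 1, 6 and 48 h the difference in C1qb was 0.56 ± 0.23, 0.52 ± 0.21 and 0.44 ± 0.22, each in the same direction without passing the threshold (adjusted p = 0.0762, 0.0726 and 0.128). Without noHS cortex replicate 1 of 1 h it passed at 1 h (0.77, adjusted p = 0.0223), and without noHS hippocampus replicate 1 of 6 h at 6 h (0.64, adjusted p = 0.0316). The difference at 1 h was also called with quantile normalization (0.67, adjusted p = 0.0291), a common median (0.67, adjusted p = 0.0281) and array weights (0.62, adjusted p = 0.0383). As the mean over the 5 times, C1qb was higher in the noHS hippocampus by 0.65 ± 0.10, or 1.57-fold (adjusted p = 2.89e-07). It was the 1 gene of 5 called there, where 51.8% of all probe sets were called, and single times gave 2 calls among 25 differences, against 19.9% of all. The other mean differences, hippocampus minus cortex, were 0.27 ± 0.13 for C3 (adjusted p = 0.069), 0.14 ± 0.08 for Ctss (adjusted p = 0.139), -0.10 ± 0.12 for Cd74 (adjusted p = 0.482) and 0.00 ± 0.07 for Lyz2 (adjusted p = 1.00). C3 passed without noHS hippocampus replicate 4 of 168 h (0.34, adjusted p = 0.00918), without replicate 4 of 48 h of that group (0.30, adjusted p = 0.0487) and without noHS cortex replicate 3 of 1 h (0.31, adjusted p = 0.041). It also passed with quantile normalization (0.38, adjusted p = 0.0136), a common median (0.31, adjusted p = 0.0423) and 32 added to each intensity (0.11, adjusted p = 0.0395). Without the litter on the other plate it passed as well (0.27, adjusted p = 0.044). Ctss passed without noHS cortex replicate 2 of 1 h (0.17, adjusted p = 0.0473).

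The same comparison within pups gave a like picture. C1qb was higher in the hippocampus of 61 of the 68 pups that gave both tissues, namely in 21 of 23 noHS, 19 of 23 HS and 21 of 22 HS+NBQX pups, with a mean log2 difference of 0.60 ± 0.44 (SD, n = 68). C3 was higher in the hippocampus of 47 of the 68 pups, by 0.30 ± 0.66 (SD) on average. The plate moves with the tissue, except in 6 pups whose tissues lay on the opposite plates from the others. All were of 1 litter at 168 h, so that plate and litter cannot be told apart in them. In these pups C1qb was at 100, 100, 101, 81.3, 55.3 and 51.5 in hippocampus and at 75, 53.7, 63.4, 74.6, 55.8 and 51.4 in cortex, pup by pup. Hippocampus was higher in 5 of the 6, by 0.35 ± 0.38 (SD) on average, and in 2 pups both tissues were nearly equal. In the 8 pups of 168 h on the usual plates the mean difference was 0.84 ± 0.51 (SD), with hippocampus higher in 7.

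When a fixed term for plate was added, a setting tried only after looking at the values and resting on that 1 litter, the mean difference in the noHS animals was 0.46 ± 0.21 and was not called (adjusted p = 0.21). With all 3 treatments in one fit it was 0.37 ± 0.14 (adjusted p = 0.0458), and the difference at 168 h was 0.89 ± 0.22 in the first of these fits (adjusted p = 0.00485) and 0.87 ± 0.21 in the second (adjusted p = 0.00126). At 12 h it was not called in either (0.56, adjusted p = 0.48, and 0.47, adjusted p = 0.324). For C3 the mean difference was 0.31 ± 0.28 in the first fit (adjusted p = 0.607) and 0.54 ± 0.20 in the second (adjusted p = 0.0392).

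**Figure D3:**
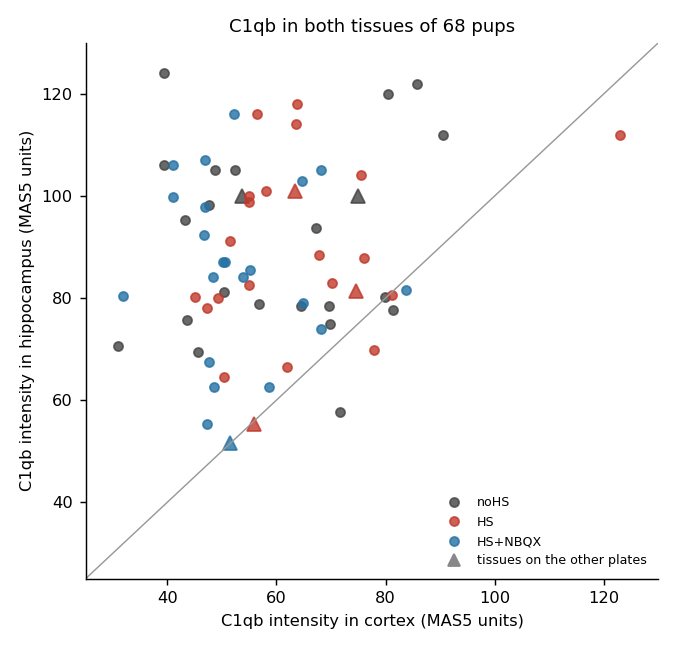
C1qb intensity in hippocampus (y axis, MAS5 units) against cortex (x axis, MAS5 units) of the same pup, with 1 point for each of 68 pups, coloured by treatment, and a line where both are equal. In 61 pups the point lies above the line, and triangles mark the 6 pups whose tissues were hybridised on the opposite plates, of which 5 lie above it.

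Hypoxic seizures were followed by no called change in any of the 5 genes. HS against noHS, averaged over the 5 times, gave 0 calls in hippocampus, against 21.5% of all probe sets, and 0 in cortex, against 29.1%. At an unadjusted p under 0.05 there was 1 gene in hippocampus and 0 in cortex, in limma and in the methods' ANOVA alike. In limma 7855 of 24249 probe sets had such a p in hippocampus and 9252 in cortex. The sizes were small beside the week-long rise. In hippocampus the differences were -0.05 ± 0.08 for C1qb, -0.23 ± 0.13 for C3, 0.04 ± 0.13 for Cd74, 0.07 ± 0.06 for Ctss and -0.13 ± 0.06 for Lyz2. In cortex they were 0.11 ± 0.11 for C1qb, -0.17 ± 0.14 for C3, 0.02 ± 0.11 for Cd74, 0.12 ± 0.09 for Ctss and -0.09 ± 0.09 for Lyz2. Lyz2 in the hippocampus came nearest to the threshold (adjusted p = 0.125), and passed it without HS hippocampus replicate 2 of 6 h (-0.16, adjusted p = 0.0394), without noHS hippocampus replicate 4 of 48 h (-0.15, adjusted p = 0.0424) and with a common median (-0.15, adjusted p = 0.0399). The difference of the response between the tissues was called for 0 of 5 genes, against 0.0907% of all probe sets. At an unadjusted p under 0.05 there were also 0 genes, against 2324 of 24249 probe sets (limma).

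At single times, 0 of 25 differences between HS and noHS were called in each tissue, against 2.39% of all hippocampal and 4.88% of cortical differences. In each tissue 2 of 25 had an unadjusted p under 0.05 in limma (1 in each with the methods' t-test, none called). Of 24249 probe sets, 2490 to 4408 had such a p in limma at single times in hippocampus and 3839 to 5095 in cortex. The difference nearest to the threshold was that of C3 in the cortex at 6 h. C3 was at 23.5, 22.7, 23.2, 15.8, 16.8 and 31.4 in the 6 noHS libraries and at 21, 16.2, 3.38 and 10.8 in the 4 HS libraries. The HS values lay lower and overlapped those of noHS, with 1 HS library at the lowest C3 intensity of all 142. The difference was -1.04 ± 0.32 on the log2 scale (adjusted p = 0.0518). It passed with a litter block (adjusted p = 0.0222), quantile normalization (adjusted p = 0.0423) and array weights (adjusted p = 0.0186). It also passed with all 3 treatments in one fit (adjusted p = 0.0481) and without the litter on the other plate (adjusted p = 0.0377). It did not pass with a random block for the plate column (adjusted p = 0.177) or with 32 added to each intensity (-0.28, adjusted p = 0.0736). Nor did it with a common median (adjusted p = 0.0702), a replicate block (adjusted p = 0.0969), no trend (adjusted p = 0.0511) or the methods' t-test (adjusted p = 0.32). It rested on the HS library at 3.38, since without that library (replicate 3) the difference was -0.49 (adjusted p = 0.429). Among other single libraries it passed without HS cortex replicate 1 or 2 of 6 h (-1.37, adjusted p = 0.0177, and -1.24, adjusted p = 0.0355), noHS cortex replicate 4 of 6 h (-1.13, adjusted p = 0.0478), noHS replicate 5 of 168 h (adjusted p = 0.0476) or HS replicate 3 of 168 h (adjusted p = 0.0475).

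C3 went the other way in the cortex at 12 h, where all 4 HS libraries (30, 30.5, 19.7 and 19.8) lay above the 5 noHS libraries (18.9, 18.6, 15.6, 17.9 and 12.6). That difference was 0.56 ± 0.33 and was not called (adjusted p = 0.414). It was the 1 pair of HS and noHS groups, of 50, that did not overlap, where 6.23% of such pairs over all probe sets did not. A test of whether the response changed over time was called for 0 of 5 genes in each tissue, with C3 in the cortex at an unadjusted p of 0.0138 (adjusted p = 0.514, limma) as the 1 gene under 0.05, against 0% of all probe sets in hippocampus and 0.0742% in the other tissue. Ctss at 1 h was 0.27 ± 0.13 higher in the HS hippocampus (adjusted p = 0.371) and 0.47 ± 0.20 higher in the HS cortex (adjusted p = 0.149), with overlapping groups. HS replicates 4 and 5 of 1 h came from a litter that gave HS pups only. With a litter block the Ctss differences were 0.35 (adjusted p = 0.31) in hippocampus and 0.45 (adjusted p = 0.115) in cortex. Single libraries moved the Ctss differences. Ctss passed in hippocampus without HS replicate 4 of 1 h (0.45, adjusted p = 0.0351) and in cortex without noHS replicate 2 of 1 h (0.66, adjusted p = 0.0493), and the lowest values were 0.18 in hippocampus, without noHS replicate 4, and 0.31 in cortex, without noHS replicate 4.

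NBQX given after the hypoxia was followed by no called difference from HS alone. The mean over the 5 times gave 0 calls in hippocampus, against 4.22% of all probe sets, and 0 in cortex, against 2.68%. Of 24249 probe sets, 3908 in hippocampus and 4262 in cortex had an unadjusted p under 0.05 (limma). Of the 5 genes 1 did in each tissue, in limma and in the methods' ANOVA alike. These were C3 in hippocampus (0.27 ± 0.12, adjusted p = 0.23) and C1qb in cortex (-0.21 ± 0.10, adjusted p = 0.242). At single times 0 of 25 differences were called in hippocampus, against 0.110% of all, and 0 of 25 in cortex, against 0.0454%. In limma 1 of 25 in hippocampus and 0 in cortex had an unadjusted p under 0.05 (0 and 3 with the methods' t-test). Of 24249 probe sets, 1647 to 2617 had such a p in limma at single times in hippocampus and 1086 to 3126 in cortex.

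HS+NBQX was also compared with noHS, a comparison that shares its libraries with those above. In hippocampus 0 of 5 genes had an unadjusted p under 0.05 in limma and in the methods' ANOVA. In limma 9478 of 24249 probe sets had one there. After adjustment 0 of 5 genes were called in hippocampus, against 30.5% of all probe sets, and 1 of 5 in cortex, against 39.0%. The 1 gene was Lyz2. Its intensity in the cortex was 215 to 760 in the HS+NBQX libraries (median 357, n = 24), 183 to 706 in the HS libraries (median 423, n = 23) and 241 to 719 in the noHS libraries (median 439, n = 25). Group medians were lower in HS+NBQX than in noHS at 6 h (226 and 368), 12 h (314 and 433), 48 h (384 and 484) and 168 h (617 and 642). They were higher at 1 h (356.5 and 327.5), and the groups overlapped at every time. The test used mean log2 values, and at 168 h that mean was slightly higher in HS+NBQX (9.32) than in noHS (9.29). Against HS the mean Lyz2 difference was -0.16 ± 0.09 and was not called (adjusted p = 0.396, limma). Against noHS Lyz2 was lower by 0.24 on the log2 scale as the mean over the 5 times (SE 0.08, adjusted p = 0.0176, limma), or 1.18-fold. The call did not hold with quantile normalization (-0.17, adjusted p = 0.101), with the plate column, which holds 1 treatment each, as a random block (-0.24, adjusted p = 0.15), or without 12 h (-0.16, adjusted p = 0.176), 48 h (-0.22, adjusted p = 0.0843) or 6 h (-0.21, adjusted p = 0.0583).

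**Figure D4:**
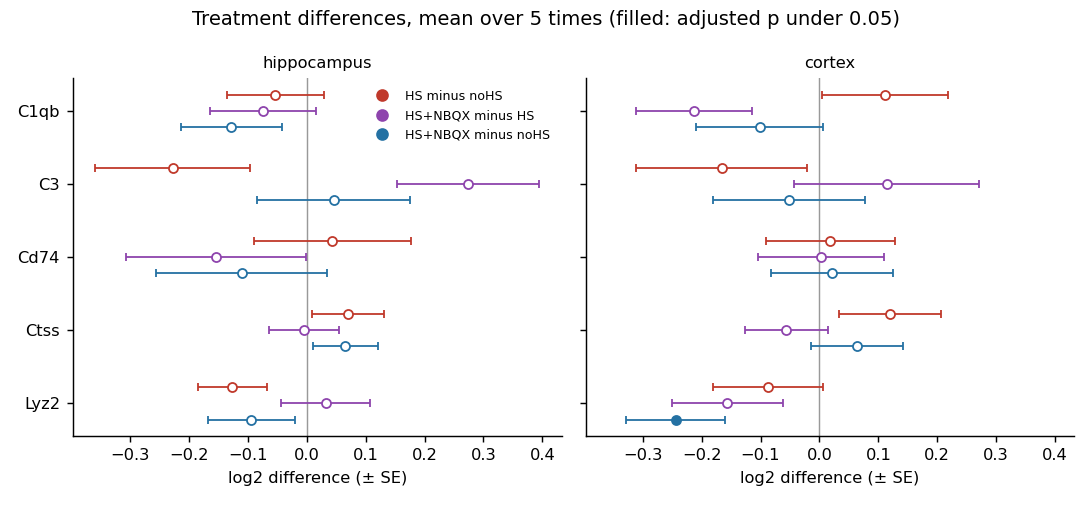
Log2 difference in intensity (x axis, mean over 5 times, bars are ± 1 SE from the limma fit) of each gene (y axis) for HS minus noHS, HS+NBQX minus HS and HS+NBQX minus noHS, with hippocampus on the left and cortex on the right. The differences run from -0.24 to 0.27 and 1 of 30, Lyz2 in cortex between HS+NBQX and noHS, passed an adjusted p of 0.05 (filled point).

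The number of seizures counted in a pup was set against the genes in the hypoxic animals, 44 hippocampal and 45 cortical libraries with counts of 5 to 17. The slope on the log2 scale per seizure was 0.02 ± 0.02 for C1qb, 0.02 ± 0.03 for C3, 0.04 ± 0.03 for Cd74, 0.00 ± 0.01 for Ctss and 0.01 ± 0.02 for Lyz2 in hippocampus. In cortex it was 0.02 ± 0.02 for C1qb, 0.02 ± 0.03 for C3, 0.01 ± 0.02 for Cd74, 0.02 ± 0.01 for Ctss and 0.03 ± 0.02 for Lyz2. In each tissue 0 of 5 genes were called, and 0% of all probe sets. At an unadjusted p under 0.05 there were also 0 genes, against 934 of 24249 probe sets in hippocampus and 1135 in cortex (limma).

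Within the groups, some of the genes varied together from library to library. Deviations of each library from its group mean on the log2 scale were correlated between genes, in 10 pairs for each tissue, with a permutation within groups and Benjamini-Hochberg adjustment over the 20 relations. In cortex the strongest relation was that of Ctss and Lyz2, with Pearson's r = 0.85 and Spearman's rho = 0.84 (n = 72, permutation p = 1e-05 for each, the smallest that 100000 permutations can give, adjusted p = 6.67e-05). C1qb went with Ctss (r = 0.72, rho = 0.68) and with Lyz2 (r = 0.66, rho = 0.66) to the same p-values. Leaving out the 2 libraries farthest from the median of the first gene gave r = 0.83, 0.68 and 0.61 for these 3 pairs. Each gene pair was ranked among all probe sets as a description. Over the cortical libraries no other of 24248 probe sets followed Ctss as closely as Lyz2 did, and none followed Lyz2 as closely as Ctss did. C1qb ranked 36th for Ctss, and Ctss ranked 9th for C1qb. In hippocampus Lyz2 ranked only 565th for Ctss, and Ctss 1058th for Lyz2.

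Cd74 went with the same genes less tightly in cortex, at r = 0.45 with Ctss (rho = 0.45, adjusted permutation p = 0.00105), 0.39 with C1qb (rho = 0.40, adjusted permutation p = 0.00493) and 0.31 with Lyz2 (rho = 0.32, adjusted permutation p = 0.0271). C3 stood apart, with r from -0.04 to 0.02 with the other 4 genes in cortex. In hippocampus Lyz2 was the gene that the others followed. There r was 0.41 with C1qb (rho = 0.40, adjusted permutation p = 0.0034), 0.38 with Ctss (rho = 0.37, adjusted permutation p = 0.0201), 0.35 with Cd74 (rho = 0.39, adjusted permutation p = 0.0271) and 0.31 with C3 (rho = 0.28, adjusted permutation p = 0.0328 for r and 0.0757 for rho), and without the 2 farthest libraries it was 0.44, 0.44, 0.34 and 0.31. In all, 6 of 10 relations passed in cortex and 4 of 10 in hippocampus, and the difference between the tissues in these relations was not tested.

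Part of this variation may lie between litters, which was not tested on its own. In the noHS cortex at 1 h, for example, the 2 pups of one litter had Ctss at 791 and 972 with Lyz2 at 389 and 453, and the 2 of the other had Ctss at 513 and 463 with Lyz2 at 266 and 241. With litter as a fixed term, so that relations were read within litters, r in the cortex was 0.84 for Ctss and Lyz2, 0.58 for C1qb and Ctss, and 0.54 for C1qb and Lyz2 (adjusted permutation p = 0.0001, 0.0001 and 0.000467), and 7 of 20 relations passed in all. C1qb with Cd74 and Cd74 with Lyz2 in cortex, and C3 with Lyz2 in hippocampus, were those that no longer did (r = 0.26, 0.20 and 0.20, adjusted permutation p = 0.0567, 0.203 and 0.193). The other relations of Lyz2 in hippocampus were slightly higher with the litter term than without it. They were r = 0.44 with C1qb, 0.43 with Ctss and 0.36 with Cd74. The scale of the array moved with several of the genes. The median of the array correlated in cortex at r = 0.31 with Ctss, 0.30 with Lyz2, 0.21 with C1qb, 0.34 with Cd74 and -0.04 with C3 (n = 72), and in hippocampus at r = -0.02, 0.23, 0.15, 0.28 and 0.12 for the same genes in turn (n = 70). For Cd74 in cortex this was above its r of 0.31 with Lyz2, and the part of the array scale in the relations was tested only by other scalings. With a common median the relation of Cd74 and Lyz2 did not pass in either tissue (adjusted permutation p = 0.0829 in cortex and 0.0765 in hippocampus), nor did that of C3 and Lyz2 in hippocampus (adjusted permutation p = 0.0546). Quantile normalization lost Cd74 and Lyz2 in cortex (adjusted permutation p = 0.0659), and 32 added to each intensity lost C3 and Lyz2 in hippocampus (adjusted permutation p = 0.0516).

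**Figure D5:**
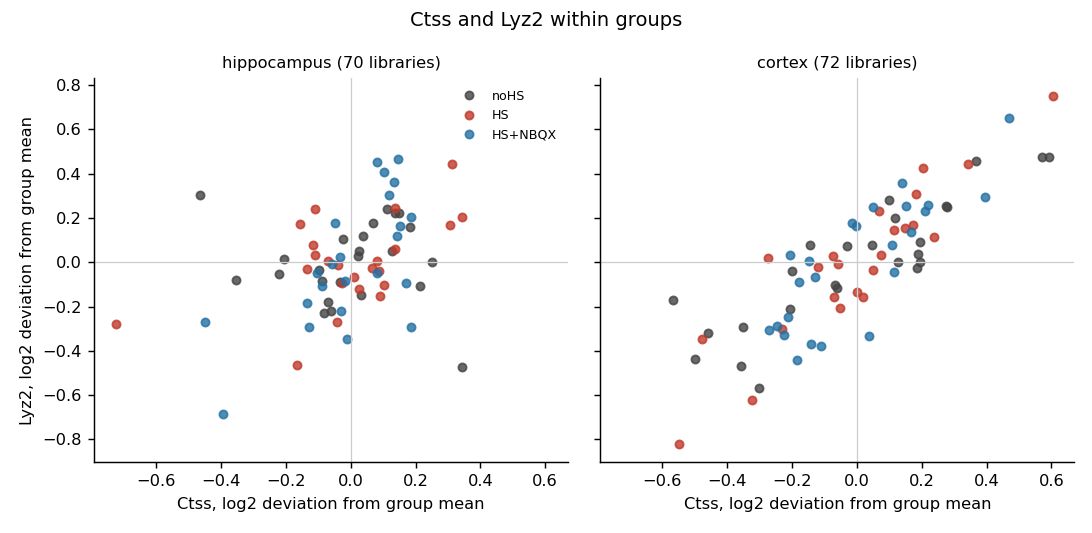
Deviation of Lyz2 (y axis) against that of Ctss (x axis) from the group mean on the log2 scale, with 1 point per library coloured by treatment, for 70 hippocampal libraries on the left and 72 cortical libraries on the right. The cortical points fall along a line (r = 0.85) and the hippocampal points are more scattered (r = 0.38).

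Where both tissues of a pup were measured, Lyz2 and Ctss also went together across the tissues. A pup with Lyz2 above its group in hippocampus tended to be above its group in cortex (r = 0.54, rho = 0.54, n = 68, permutation p = 3e-05 for each, adjusted p = 0.00015), and so for Ctss (r = 0.47, rho = 0.48, permutation p = 0.00197 and 0.0004, adjusted p = 0.00492 and 0.001). Without the 2 farthest pups r was 0.56 and 0.47, and within litters it was 0.60 and 0.50. For C1qb, C3 and Cd74 r was 0.05, 0.04 and 0.16 (adjusted permutation p = 0.773, 0.773 and 0.493), so that 2 of the 5 relations passed.

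Over the 30 group means, which carry tissue, time and treatment together, the pattern of Ctss was most like that of probe set 1383453_AT (r = 0.97), and that of Lyz2 was most like that of 1398360_AT (r = 0.95), among the 12125 probe sets at or above the median brightness. These are not named here. Lyz2 ranked 62nd for Ctss and Ctss 42nd for Lyz2 (r = 0.91). Cd74 had r = 0.68 with each of them, C1qb had r = 0.25 with Ctss and 0.23 with Lyz2, and C3 had r = 0.10 and 0.11. The best r that any bright probe set reached was 0.95 for C1qb, 0.82 for Cd74 and 0.71 for C3. These values describe likeness of the group means only, and carry no test.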

How the data were processed

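The deposited values are hybridisation intensities on a linear scale, 1 per probe set and library. From HT Rat Focus arrays, the authors made these intensities with MAS5 (version not given in the sources used here). They then scaled every array by 1 factor so that its present probe sets shared an upper quartile. Before deposit, 2 scans were left out by the authors over a possible swap of tissues. Groups, litters, pups and seizure counts came from the labels, and plate positions from the study's supplementary sample table. Intensities were floored at the smallest positive value of 0.0526 (97 values of the whole table were at or below 0, none in the 5 genes) and taken to log2. Comparisons were fitted over all 24249 probe sets with limma 3.58.1 in R 4.3.3 (lmFit, eBayes with trend), with a mean for each treatment and time, the libraries of the compared groups only, and Benjamini-Hochberg adjustment over all probe sets, and were called under an adjusted p of 0.05. The study selected genes by treatment at a laxer false-discovery rate, and for NBQX in cortex by an unadjusted p. That selection was not repeated here, and the methods' tests were read at the same threshold of 0.05. Replicates are separate pups, some of 1 litter, and precision is limited by their number. The plotted and permuted values used Python 3.11.15 and NumPy 2.4.6. The limma fits were tested on simulated data. The genes and the tests were chosen with earlier results of these data known. The rule for named probe sets took the 5 genes and, for likeness, those closest in group means, of which unnamed identifiers were limited to 1 each for Ctss and Lyz2. Lists of cell type markers were not run, since no table pairs probe sets with genes. Replicate numbers did not pair libraries of different treatments (median correlation of deviations between -0.002 and 0.011), whereas pup identity pairs the tissues. Alternatives were another scaling, 32 added before log2, a filter that dropped the dimmest probe sets (below percentile 40), no trend, array weights, blocks for replicate, litter, plate column and pup, all 3 treatments in one fit, the methods' tests, and leaving out each library, each time or the litter on the other plate. Plate as a fixed factor, in the noHS fit and in the tissue fit of all 3 treatments, was added after the data were seen.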

Additional observations from a re-analysis of the deposited data

Results flagged for a closer look

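Within groups of 4 to 6 libraries, 9 of 150 combinations of gene and group held 1 library far from the rest by Dixon's criterion, where chance flags about 1 in 20. Of these, 3 were of C1qb. They were the HS+NBQX cortex at 6 h, with 1 library at 68.2 and the other 4 at 46.8 to 50.5, the HS+NBQX cortex at 48 h, with 1 at 31.9 and the other 4 at 55.1 to 68.1, and the noHS hippocampus at 1 h, with 1 at 105 and the other 4 at 69.5 to 77.6. Ctss had a low library in the noHS cortex at 48 h (785 against 1200 to 1330) and in the HS+NBQX hippocampus at 1 h (643 against 907 to 939). The first of these libraries was also the low one for Cd74, at 19.2 against 30.2 to 33.8. C3 had 1 low library in the HS hippocampus at 1 h (12.5 against 19.4 to 23.1), 1 high in the noHS hippocampus at 1 h (36.7 against 21.5 to 24.7) and 1 low in the noHS hippocampus at 168 h (7.21 against 20 to 27.9).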

How the results depend on the processing

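All 17 called differences of single genes kept their direction under every alternative, and of 123 differences not called, 46 changed sign under at least 1. The rise of Ctss from 1 to 168 h was called under all alternatives in each treatment and tissue, with log2 values of 0.74 to 1.49, and that of Lyz2 in all but the HS cortex, where 1 of 5 genes was called in place of 2 both with plate as a fixed factor and without the litter on the other plate. With a replicate block, which pairs no libraries here, 2 genes were called in each of these comparisons, as without it, and with a replicate block by pup the mean tissue difference of C1qb was 0.65. Between the tissues 2 genes were called in place of 1 with quantile normalization, a common median, 32 added, without the litter on the other plate, and with plate in the fit of all 3 treatments. The added gene was C3 each time. With plate in the noHS fit 0 were called. At single times plate left 1 call of 2 in both fits. HS against noHS gave 1 call in place of 0 in hippocampus with a common median, which was Lyz2. In cortex at single times it gave 1 in place of 0, C3 at 6 h, with quantile normalization, array weights and a litter block. The same call came with all 3 treatments in one fit and without the litter on the other plate. HS+NBQX against noHS in cortex gave 0 in place of 1 with quantile normalization, the plate column as a random block, and without 6, 12 or 48 h. In the noHS cortex before 168 h there were 2 calls with array weights and a common median and 0 without trend. Leaving out 1 library at a time gave 0 to 2 calls for that comparison, 1 to 2 for the mean tissue difference, 2 to 3 for single times, 0 to 1 for HS against noHS in hippocampus and, at single times, in each tissue, 1 for HS+NBQX against noHS in cortex, 2 for every comparison over the week and 0 elsewhere. The correlations between the genes gave 7 to 10 calls of 20 and those between tissues 2 of 5 under every setting. The filter on dim probe sets left no value for C3 and Cd74, whose low signal limits what can be seen.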
